A study of Rattus norvegicus with 12 samples.

Results

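Sham-operated rats were compared with bile-duct-ligated rats given AAV-VEGFC, an adeno-associated virus (AAV) that carries the gene of vascular endothelial growth factor C. The samples were taken by the group in their titles, 3 AAV-VEGFC libraries and 3 sham libraries, which are 6 of the 12 brain RNA-seq libraries of the series. The comparison asks which transcripts stayed away from the sham level after treatment. All rats were male Sprague-Dawley rats of postnatal day 60. For the sham rats the labels name neither ligation nor vector. Bile duct ligation (BDL) had lasted 4 weeks in the AAV-VEGFC rats, which also had 1.5e+11 genome copies of the vector injected in 20 µl into the cisterna magna, the fluid space behind the cerebellum. The exponent of that dose is read from a label that appears to have lost its superscript. The other ligated groups, used here to place the values, are 3 rats with BDL and no vector and 3 rats with BDL and a vector coding for green fluorescent protein (AAV-GFP) at the same dose. A sham group with a vector is not analysed here, so ligation, injection, vector and transgene cannot be told apart in the comparison with sham. The labels name no batch, so a separate preparation of the vector libraries cannot be told apart from these either. The sources used here do not give the promoter of the vectors.

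Bile duct ligation blocks the outflow of bile and leads to cirrhosis, and the ammonia and inflammatory signals that a failing liver lets through affect the brain, a condition called hepatic encephalopathy. VEGFC is the ligand of the receptor Flt4 (VEGFR3) and drives the growth of lymphatic vessels, which in the meninges drain fluid and cells from around the brain. The brain's own vessels form the blood-brain barrier, in which endothelial cells are sealed by tight junctions and carry dedicated transporters. Immediate early genes are switched on within minutes of neuronal firing and are widely used as a record of it.

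Levels are given as CPM, reads of a gene relative to all reads of the library, scaled by edgeR's TMM factors and given in the order of libraries 1, 2 and 3 of a group. They are not divided by gene length, so levels of different genes are not compared. Differences are log2 fold changes ± SE of AAV-VEGFC over sham from edgeR's quasi-likelihood test, with Benjamini-Hochberg adjusted p, and a gene is called higher or lower at an adjusted p under 0.05. The design text gives 3 rats per group, but no label ties a library to an animal, so p-values measure the spread between these libraries.

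Of 12850 tested genes, 2394 (18.6%) were called in AAV-VEGFC against sham, 1026 higher (7.98%) and 1368 lower (10.6%). Most of these differences were small: their median size was 0.505 on the log2 scale, and 336 exceeded 1, with 142 higher and 194 lower. The number called rested on the sham libraries, being 983 without sham 1, 1365 without sham 2 and 1059 without sham 3, while it was 2810 to 3205 without 1 of the AAV-VEGFC libraries. A fit of the 6 compared libraries alone called 702 genes, of which 688 were among the 2394. Of 88 named genes whose calls were followed, Atf3, Osmr, Clock, Uqcrc1, Hemgn, C1qc, Lcn2, Tjp1 and Srsf5 missed the threshold in that fit. Ifitm3 and Tef, named below without a fold change, missed it too. Sycp2, Alkbh6, Gnb3, Stat4, Tnfrsf25 and Mss51, also named below, were not followed.

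**Figure D1:**
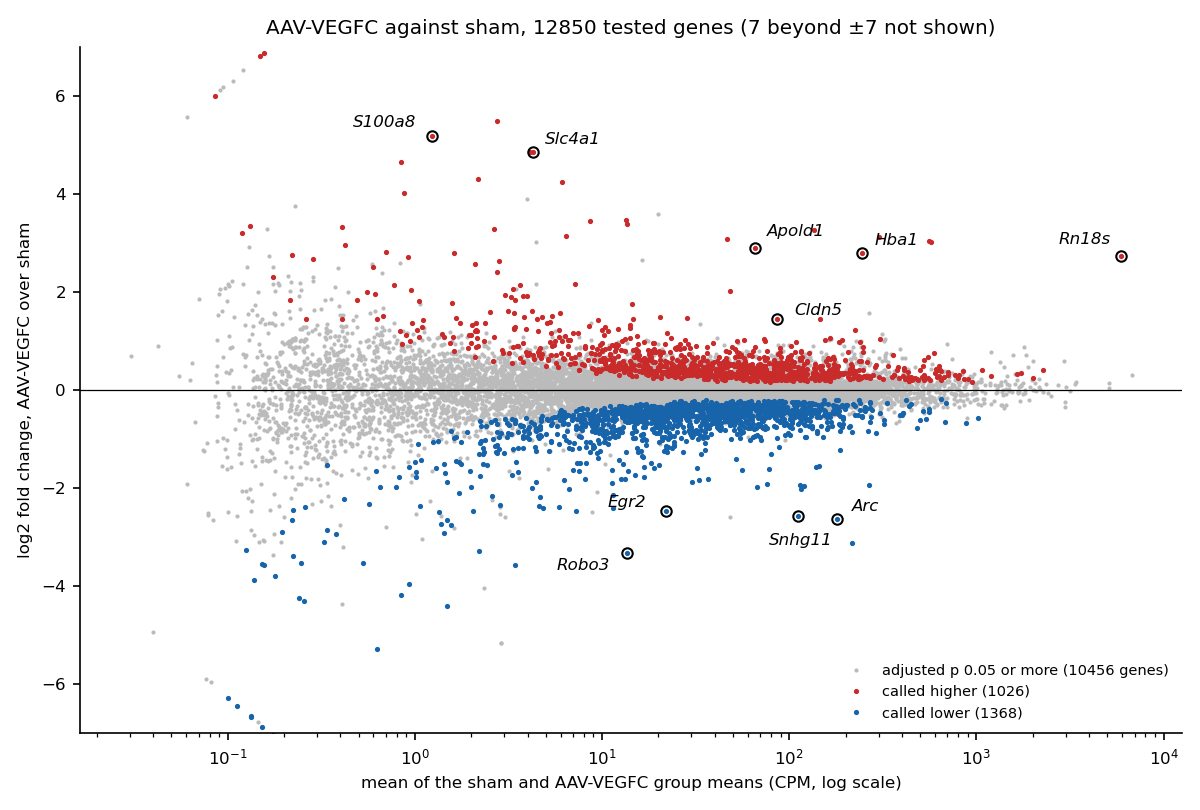
Log2 fold change of AAV-VEGFC over sham (vertical axis) against the mean of both group means in CPM (horizontal axis, log scale), with each point 1 of 12850 tested genes and 7 genes beyond the axis left out. The 1026 genes called higher (red) and 1368 called lower (blue) lie mostly within 1 unit of 0, with the red-cell gene Slc4a1 and the neutrophil gene S100a8 far above and Robo3, Arc and Snhg11 far below.

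**Figure D2:**
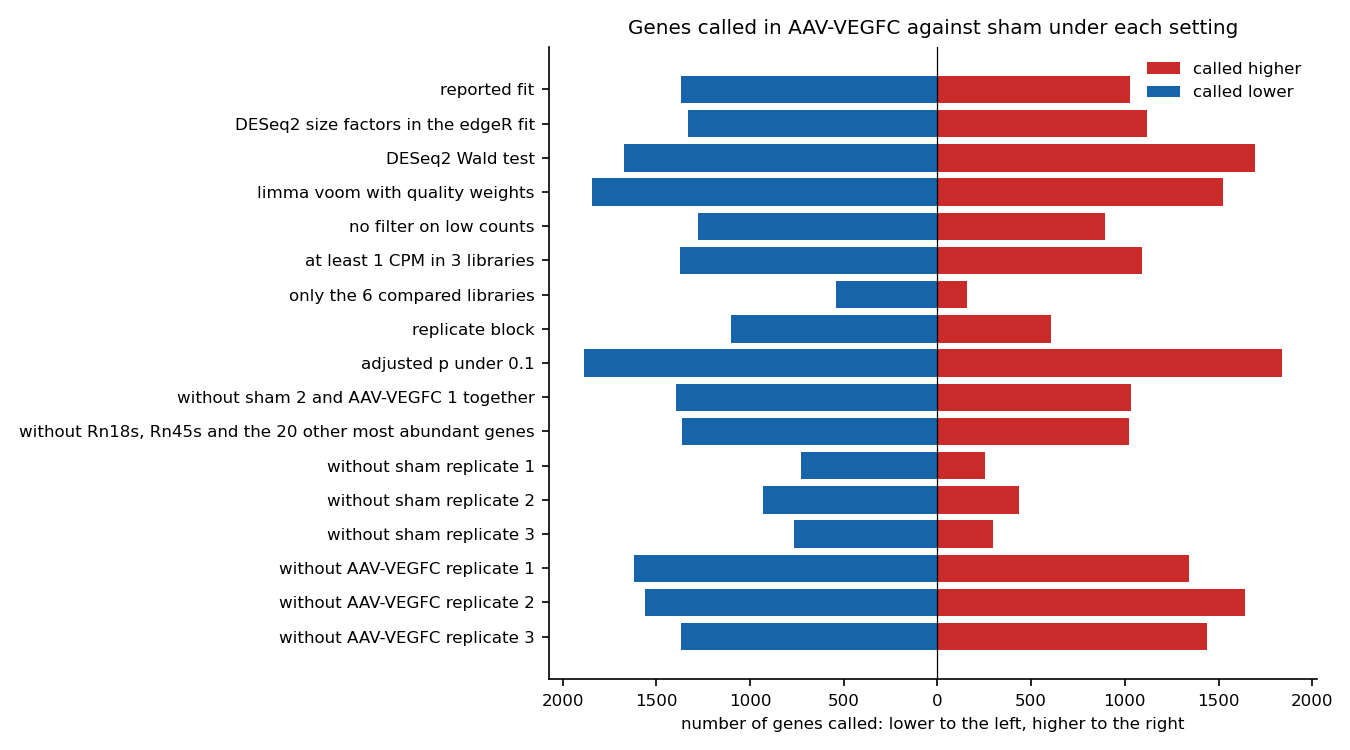
Number of genes called higher (right) and lower (left) in AAV-VEGFC against sham in the reported fit and under each other setting. The count is smallest, 702, when only the 6 compared libraries are fitted, and largest, 3722, at an adjusted p under 0.1.

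The libraries held 40296297 to 51669067 counts each. The first principal component carried 28.2% of the variance and parted the 6 vector libraries from the other 6, and 18S ribosomal RNA (Rn18s) took 0.137% to 0.306% of reads in sham and BDL libraries but 0.43% to 1.16% in vector libraries. In AAV-VEGFC 1 the mean correlation with the other libraries was the lowest (0.968). The 17 choroid plexus and ependyma markers found summed to 632 CPM in sham 2 and to 193.5 to 290.3 CPM in the other 11 libraries. AAV-VEGFC 3 held pituitary transcripts, Gh1 at 27.8 CPM and Prl at 25.7 CPM, which were at 0 in all sham libraries. Fewer reads of Gh1 and Prl were in AAV-VEGFC 2 (27 and 43), AAV-VEGFC 1 (0 and 4) and AAV-GFP 1 (19 and 46). The tissue is called middle brain in the series, and of 17 markers of midbrain monoamine neurons in the files 5 were at 0 in all 6 compared libraries, among them Foxa1, Foxa2 and Fev. Slc6a3, the dopamine transporter, had 3 reads or fewer in each. Other markers had reads, in libraries of 40296297 or more counts. Th, tyrosine hydroxylase, had 32 to 56 and Tph2, the enzyme of serotonin synthesis, 30 to 76. Slc18a2, the vesicular monoamine transporter, had 9 to 72, Ddc 187 to 353 and Ret 395 to 1422. From the list of cortex and hippocampus neurons, Slc17a7 had 50029 to 82297 reads and Neurod6 3637 to 7027 in the compared libraries. Which region was dissected was not tested.

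The called genes were counted in 3 patterns by where the other libraries lay. In 751 of them all 9 ligated libraries lay on 1 side of the 3 sham libraries, 390 above and 361 below, against 5.05% and 4.62% of all tested genes. In 1648 the 6 vector libraries lay on 1 side of the 6 libraries without a vector, against 7.92% above and 10.4% below among all tested genes. In 233 the 3 AAV-VEGFC libraries lay outside the other 9, 113 above and 120 below, against 1.27% and 1.23%. A gene may be in more than 1 of these counts. Of the 2394 called genes, 2384 already had the AAV-VEGFC libraries apart from the sham libraries. The shares of all tested genes are therefore no baseline for counts among the called genes. The 3 AAV-VEGFC libraries did not overlap with the 3 sham libraries in 39.1% of tested genes, 18.9% above and 20.2% below. The 3 ligated groups were each compared with the same 3 sham libraries, so their differences from sham are given side by side and are not independent of each other. By these tests, 0.109% of genes were called in BDL against sham (0.0934% higher, 0.0156% lower) and 12.3% in AAV-GFP against sham (3.95% higher, 8.33% lower). In AAV-VEGFC against BDL 9.93% were called, 2.91% higher and 7.02% lower.

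**Figure D3:**
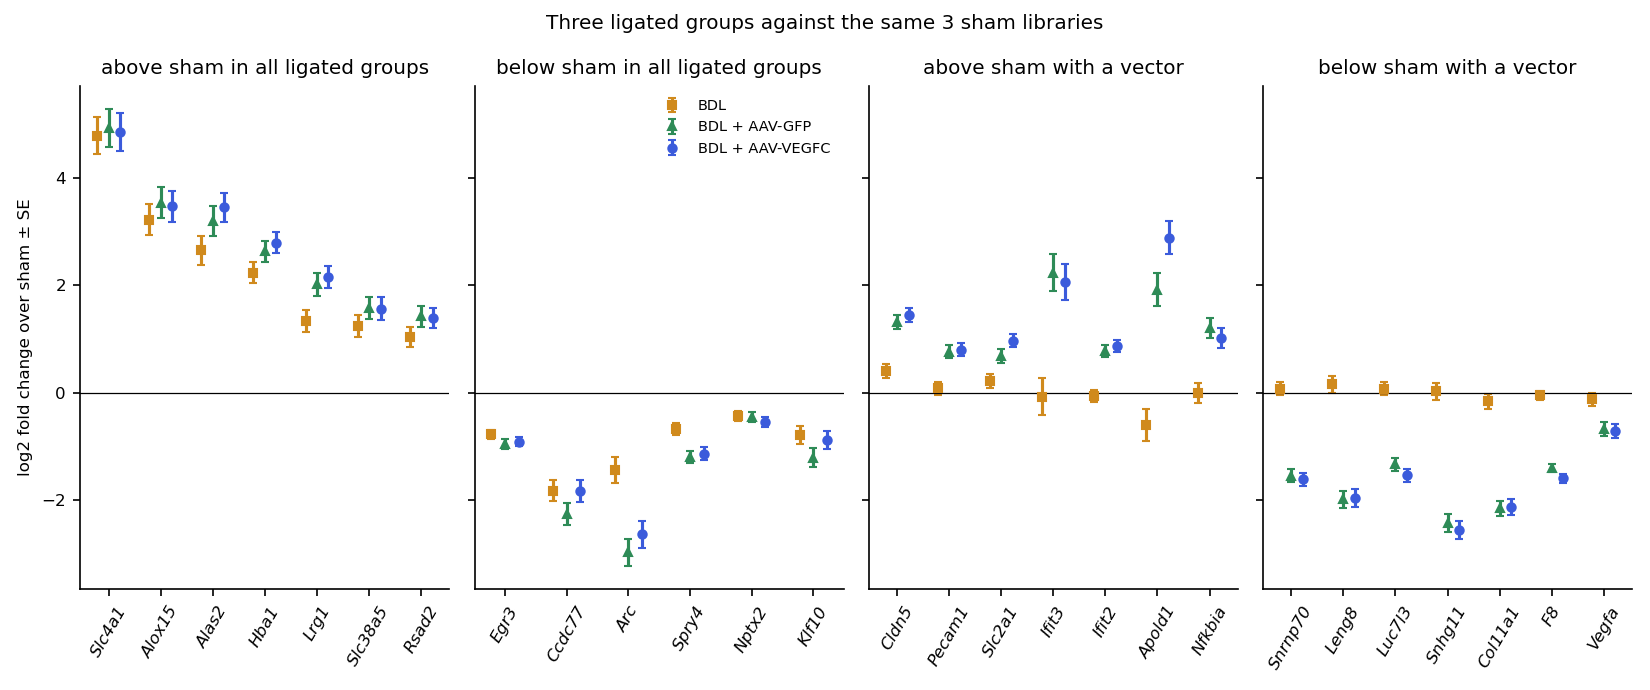
Log2 fold change over sham ± SE (vertical axis) of 27 named genes in BDL (squares), BDL with AAV-GFP (triangles) and BDL with AAV-VEGFC (circles). In the 2 left panels all 3 ligated groups are away from 0, while in the 2 right panels BDL without a vector lies near 0 for most genes and both vector groups do not.

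Several red-cell transcripts stayed far above sham after AAV-VEGFC. Of 26 listed red-cell and globin genes 16 were tested, and 7 were called higher, with a median difference of 2.22 on the log2 scale against 0.006 over all tested genes. Slc4a1 (band 3, which swaps chloride for bicarbonate across the red-cell membrane) was at 0.137, 0.448 and 0.263 CPM in the sham libraries and at 6.33, 9.68 and 8.77 CPM in the AAV-VEGFC libraries (4.86 ± 0.35, adjusted p = 1.7e-05). The groups did not overlap, and the BDL libraries (5.79 to 9.99 CPM) and AAV-GFP libraries (8.62 to 8.8 CPM) overlapped with AAV-VEGFC. Alas2, which catalyses the entry step of haem synthesis in erythroid cells, was at 1.15, 1.79 and 1.39 CPM in sham and 15.03, 15.2 and 17.3 CPM in AAV-VEGFC (3.45 ± 0.28, adjusted p = 3.37e-05). Here all AAV-VEGFC libraries also lay above the BDL libraries (5.38 to 12.4 CPM), but the difference from BDL missed the threshold (0.80 ± 0.25, adjusted p = 0.0616). Hba1, an alpha globin, was at 53.2, 73.2 and 57.6 CPM in sham and 427, 426 and 426 CPM in AAV-VEGFC (2.80 ± 0.20, adjusted p = 1.61e-05). The beta globin row Hbb rose by 3.13 ± 0.30, adjusted p = 9.57e-05, and so did the row Hbb-b1, by 3.08 ± 0.25, adjusted p = 3.37e-05, although near-identical globin copies share reads and the split between rows is uncertain. Alox15, a lipoxygenase that helps clear mitochondria from reticulocytes, was at 2.42, 2.45 and 1.77 CPM in sham and 22.5, 31.4 and 20.2 CPM in AAV-VEGFC (3.47 ± 0.29, adjusted p = 4.16e-05). Its differences from sham were 3.22 ± 0.29 in BDL, 3.54 ± 0.29 in AAV-GFP and 3.47 ± 0.29 in AAV-VEGFC. Hemgn, a nuclear factor of red-cell precursors that was named after its values were seen, rose as well (2.95 ± 0.67, adjusted p = 0.0137; 3.75 without sham 1). In tissue, more cells of a type and more RNA per cell cannot be told apart, and this holds for each gene group below. Gata1, the master regulator of red-cell precursors, had 0 reads in all 12 libraries. The other tested members of the list were not called higher. Klf1 had 69, 35 and 36 reads in sham and 69, 44 and 50 in AAV-VEGFC. Tfrc had 9024, 8428 and 7246 reads in sham and 8298, 8056 and 6942 in AAV-VEGFC.

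Among neutrophil and acute-phase transcripts 6 of the 12 tested were called higher and 0 lower. The list holds 24 genes, and the median of the 12 was 1.97 on the log2 scale. Lrg1, a leucine-rich glycoprotein that liver, neutrophils and endothelium secrete in inflammation, was at 3.15, 2.53 and 2.13 CPM in sham and 14.02, 9.48 and 11.5 CPM in AAV-VEGFC (2.16 ± 0.21, adjusted p = 9.57e-05). It stood above BDL as well (5.05 to 7.72 CPM), by 0.82 ± 0.20 on the log2 scale (adjusted p = 0.0238). S100a8 and S100a9 encode the subunits of calprotectin, the main cytosolic protein of neutrophils. S100a8 had 0, 9 and 0 reads in the sham libraries and 145, 50 and 116 reads in the AAV-VEGFC libraries (5.19 ± 0.86, adjusted p = 0.00269). All sham reads of S100a8 were in sham 2, and without that library the estimate was 9.81, which rests on the prior count. S100a9 had 24, 6 and 0 reads in sham and 248, 99 and 189 in AAV-VEGFC (4.31 ± 0.77, adjusted p = 0.00392; 5.91 without sham 1). Mmp8, a collagenase stored in neutrophil granules, had 23, 14 and 17 reads in AAV-VEGFC and 0 in sham, which makes it at least 18-fold higher when the sham group is set to 3 counts in all (adjusted p = 0.00226). Napsa, an aspartic protease, had 36, 30 and 31 reads in AAV-VEGFC and 0 in sham, at least 33-fold higher by the same floor (adjusted p = 0.000269). Both were also present in every BDL and AAV-GFP library, Napsa at 0.737 to 1.64 CPM and Mmp8 at 0.325 to 1.1 CPM. Lcn2, the iron-binding lipocalin, was at 0.645, 0.877 and 0.598 CPM in sham and 4.46, 0.778 and 2.09 CPM in AAV-VEGFC (1.78 ± 0.53, adjusted p = 0.0404). AAV-VEGFC 2 lay within the sham range, and the call was lost without any 1 of the sham libraries or AAV-VEGFC 1 (1.01 without the last). The granule genes Elane, Mpo and Ltf, which neutrophils make as precursors in the marrow, had 0 reads in all 12 libraries, while 2 other granule genes, Ngp (0, 5 and 2 reads in sham, 16, 8 and 15 in AAV-VEGFC) and Camp (0, 11 and 3 reads in sham, 12, 0 and 0 in AAV-VEGFC), had reads and were not called. Hp, the acute-phase protein haptoglobin, was not called either, with 74, 56 and 45 reads in sham and 31, 36 and 42 in AAV-VEGFC, and neither were Mmp9, a gelatinase, Csf3r, the receptor of granulocyte colony-stimulating factor, and Cxcr2, a chemokine receptor.

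Many immediate early genes of neurons stayed below sham. All 25 listed genes were tested, and 12 were called lower and 3 higher, with a median of -0.67 on the log2 scale; without sham 1 the number lower was 7. The summed level of the 25 genes was 2044 to 2152 CPM in sham and 990 to 1321 CPM in AAV-VEGFC, with BDL at 1046 to 1369 CPM and AAV-GFP at 928 to 1071 CPM. Arc, whose protein adjusts AMPA receptor numbers at active synapses, was at 305, 328 and 297 CPM in sham and 52.7, 46.03 and 51.1 CPM in AAV-VEGFC (-2.63 ± 0.25, adjusted p = 0.000104). The BDL libraries lay between (68.9, 169 and 104 CPM), and AAV-VEGFC was below them by 1.19 ± 0.24 on the log2 scale (adjusted p = 0.0112). Egr3, a zinc finger factor that neuronal activity induces, was at 92.8, 83.9 and 88.1 CPM in sham and 44.3, 52.4 and 43.99 CPM in AAV-VEGFC (-0.91 ± 0.09, adjusted p = 8.74e-05). Its differences from sham were -0.78 ± 0.09 in BDL, -0.95 ± 0.09 in AAV-GFP and -0.91 ± 0.09 in AAV-VEGFC, and the BDL libraries (48.2 to 55.7 CPM) and AAV-VEGFC libraries overlapped. Nptx2, a secreted pentraxin that gathers AMPA receptors (-0.55 ± 0.09, adjusted p = 0.00198), and Klf10, a zinc finger factor (-0.88 ± 0.17, adjusted p = 0.00563), fell in the same way, with every ligated library below every sham library for both genes. The 3 genes called higher, 1 without sham 1, took another course. Atf3, a stress-induced transcription factor, was at 0.469, 0.917 and 0.98 CPM in sham, 0.26 to 0.404 CPM in BDL and 3.66, 2.06 and 8.9 CPM in AAV-VEGFC (2.63 ± 0.51, adjusted p = 0.00623; 1.85 without AAV-VEGFC 3). Maff (1.59 ± 0.34, adjusted p = 0.0098) and Klf4 (0.79 ± 0.23, adjusted p = 0.0389) were named after their values were seen, and the call of Maff was lost without sham 1, that of Klf4 without any 1 of the sham libraries or AAV-VEGFC 3.

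Egr2, a zinc finger factor of the same family as Egr3, was at 34.98, 34.3 and 41.97 CPM in sham and 5.37, 10.9 and 3.89 CPM in AAV-VEGFC (-2.46 ± 0.45, adjusted p = 0.00473) and was in overlap with BDL, at 7.0, 12.5 and 22.2 CPM. Its promoter is shown because immediate early genes are textbook targets of serum response factor, which binds the CArG box, searched on both strands. RefSeq's 300 bases from 250 before to 50 after the start of the gene in the GRCr8 build (chr20:21054392-21054691, minus strand), with the CArG box in capitals, read as follows.
Egr2: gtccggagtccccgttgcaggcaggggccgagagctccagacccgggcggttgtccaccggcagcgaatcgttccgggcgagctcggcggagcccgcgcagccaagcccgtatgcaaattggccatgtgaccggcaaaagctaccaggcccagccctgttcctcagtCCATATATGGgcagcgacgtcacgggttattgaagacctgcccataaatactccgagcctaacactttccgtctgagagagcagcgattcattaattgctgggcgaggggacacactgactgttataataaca
Of the 12 immediate early genes called lower, 9 had a promoter entry and 2 of these (Egr1 and Egr2) held the box, against 1.64% of all 27457 promoters and 1.17% of the 9683 promoters of tested genes. Boxes in listed genes not called were not counted apart, so the shares do not bear on the calls. Egr1 fell by 1.23 ± 0.27 on the log2 scale (adjusted p = 0.0108).

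Inhibitors that are induced by ERK signalling and feed back on it were lower as well, 7 of 14 tested, with a median of -0.49 on the log2 scale. That number was 3 without sham 1 or sham 2 and 4 without sham 3. Spry4, a Sprouty protein that blocks the path from growth factor receptors to ERK, was at 28.3, 29.7 and 32.3 CPM in sham and 12.7, 16.1 and 12.4 CPM in AAV-VEGFC (-1.13 ± 0.11, adjusted p = 0.000147). BDL lay between (18.6 to 19.1 CPM), and the difference of AAV-VEGFC from BDL passed the threshold (-0.46 ± 0.11, adjusted p = 0.0272). The related Spred1 (-0.62 ± 0.12, adjusted p = 0.00686) and Spred3 (-0.57 ± 0.11, adjusted p = 0.00719) fell too. Ccdc77, a coiled-coil protein gene, was at 9.73, 9.62 and 10.04 CPM in sham and 3.73, 2.04 and 2.55 CPM in AAV-VEGFC (-1.82 ± 0.20, adjusted p = 0.00026). It was as low in BDL (2.45 to 3.09 CPM) and in AAV-GFP (1.95 to 2.14 CPM). Of the chaperones Dnajb5, an HSP40 family member, was at 236, 219 and 228 CPM in sham and 126, 167 and 131 CPM in AAV-VEGFC (-0.69 ± 0.11, adjusted p = 0.00219), with all 9 ligated libraries below sham.

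**Figure D4:**
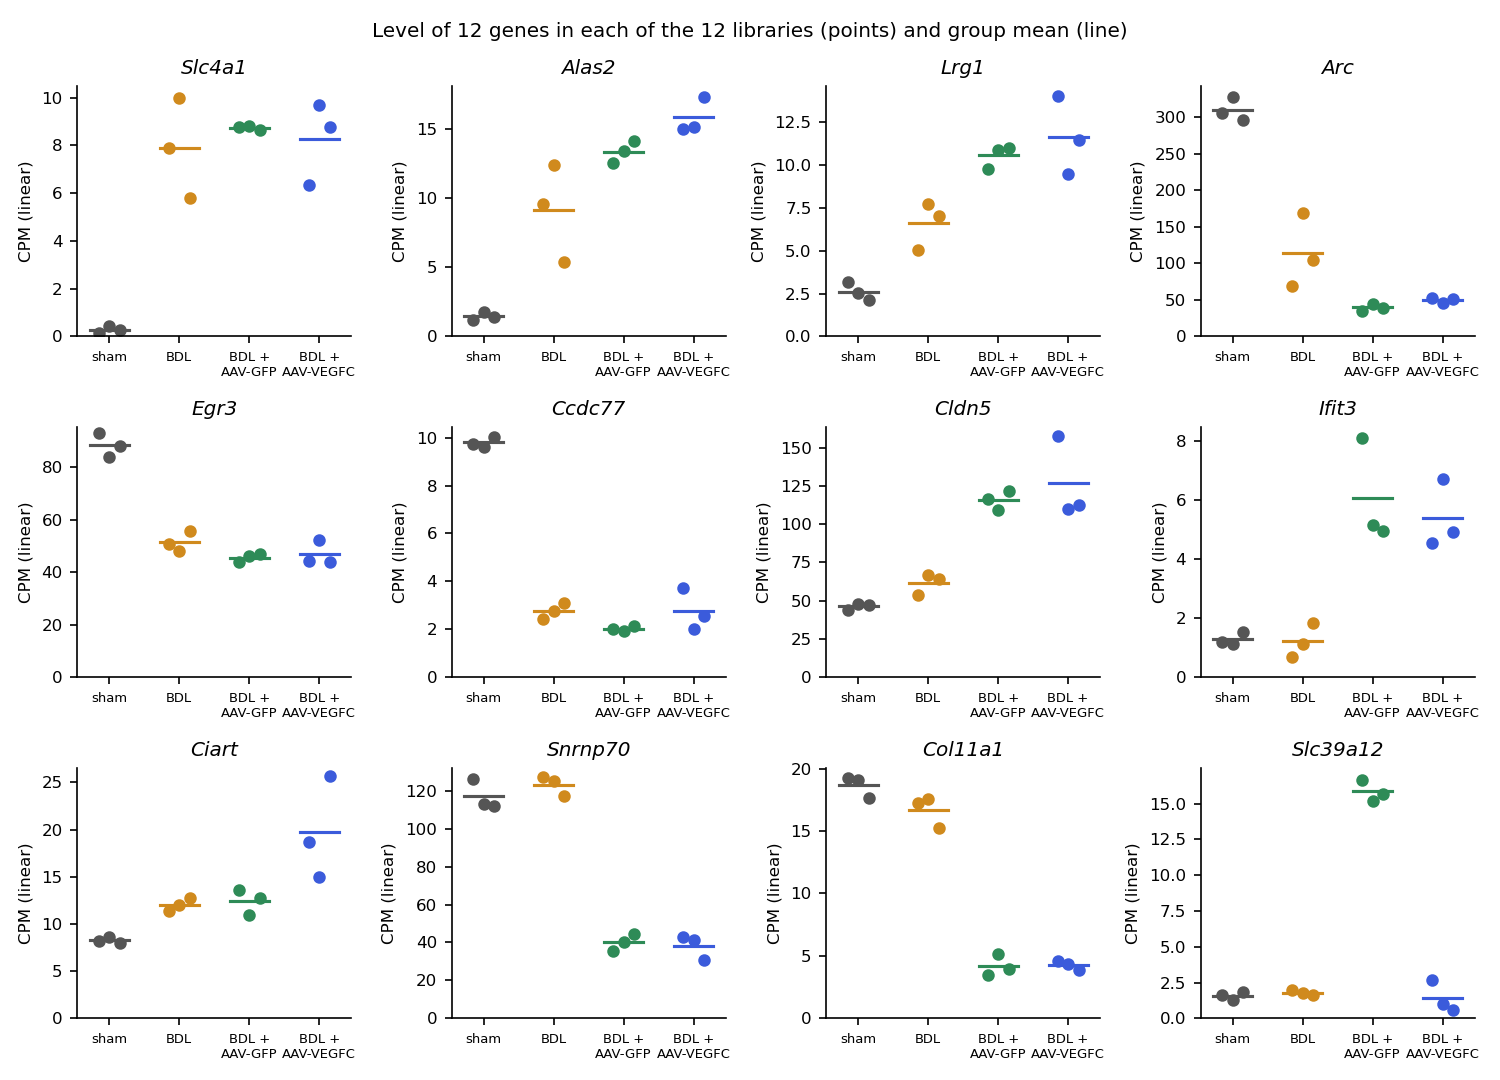
Level in CPM (vertical axis, linear, from 0) of 12 genes in each library (points) of the 4 groups, with the group mean as a line. Slc4a1, Alas2, Lrg1, Arc, Egr3 and Ccdc77 part all ligated libraries from sham, Cldn5, Ifit3, Snrnp70 and Col11a1 part the vector libraries from the rest, Ciart is highest with AAV-VEGFC, and Slc39a12 is high with AAV-GFP alone.

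Many transcripts of the brain endothelium rose. All 26 listed genes were tested, 11 were called higher and 1 lower, with a median of 0.50 on the log2 scale, and 8 to 11 were higher when any 1 library was left out. Cldn5, the claudin that seals the tight junctions of the barrier, was at 43.7, 48.1 and 47.3 CPM in sham and 158, 110.1 and 113 CPM in AAV-VEGFC (1.45 ± 0.14, adjusted p = 8.68e-05). It was also above BDL (53.6 to 66.7 CPM; 1.05 ± 0.13, adjusted p = 0.000815), while AAV-GFP at 109 to 121 CPM overlapped with AAV-VEGFC. Apold1, an apolipoprotein L family gene of endothelial cells, had the largest rise of the list, from 13.3, 14.1 and 19.1 CPM in sham to 109, 113 and 123 CPM in AAV-VEGFC (2.89 ± 0.31, adjusted p = 0.000205). The AAV-GFP libraries lay between (51.6 to 62.6 CPM) and the BDL libraries at the lower end of sham or below it (4.64 to 13.4 CPM). Pecam1, an adhesion protein between endothelial cells, was at 10.6, 11.8 and 11.6 CPM in sham and 19.98, 18.4 and 20.98 CPM in AAV-VEGFC (0.80 ± 0.12, adjusted p = 0.00167). Emcn, an endothelial sialomucin (1.13 ± 0.15, adjusted p = 0.0008), Esam, a junctional adhesion protein (0.85 ± 0.14, adjusted p = 0.00238), and Tek, the angiopoietin receptor (0.54 ± 0.10, adjusted p = 0.00529), rose as well. Tjp1, a scaffold of tight junctions, was the gene called lower (-0.27 ± 0.08, adjusted p = 0.0322). It was named after its values were seen and lost its call without any 1 of the sham libraries or AAV-VEGFC 3.

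Among 19 tested transporters of the barrier 8 were called higher and 1 lower, with a median of 0.12 on the log2 scale; the number higher was 5 without sham 1 or sham 3. Slc2a1, the glucose transporter of the barrier, was at 126, 129.5 and 119.7 CPM in sham and 245, 216 and 277 CPM in AAV-VEGFC (0.97 ± 0.13, adjusted p = 0.000622). All AAV-VEGFC libraries lay above all others of this gene, BDL being at 119 to 170.5 CPM and AAV-GFP at 194 to 212 CPM. Slc38a5, a glutamine transporter, was at 1.8, 1.9 and 1.43 CPM in sham, 3.81 to 4.5 CPM in BDL and 4.97, 6.33 and 3.93 CPM in AAV-VEGFC (1.57 ± 0.21, adjusted p = 0.000722). Mfsd2a, the lipid transporter that limits vesicle traffic across the barrier (0.84 ± 0.13, adjusted p = 0.00198), Abcb1a, the drug efflux pump P-glycoprotein (0.89 ± 0.16, adjusted p = 0.0048), and Slc7a5, the carrier of large neutral amino acids (0.46 ± 0.08, adjusted p = 0.00407), rose by smaller steps. For these 4 genes and for Cldn5, all 9 ligated libraries lay above all sham libraries, those with BDL alone too. Lrp1, a receptor for lipoproteins that neurons and glia also carry, fell from 1112, 1054 and 1076 CPM in sham to 569.9, 758 and 704 CPM in AAV-VEGFC (-0.67 ± 0.12, adjusted p = 0.00366). Mural cells gave no stable count: of 18 tested pericyte and smooth muscle genes 6 were called higher, but 0 were without sham 1, sham 2 or AAV-VEGFC 1, 1 without sham 3 and 2 without AAV-VEGFC 2. Acta2, smooth muscle actin, was at 4.71, 7.09 and 7.82 CPM in sham and 17.4, 17.3 and 10.6 CPM in AAV-VEGFC (1.21 ± 0.34, adjusted p = 0.0326), a call that those same 5 omissions ended.

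The rows of the ligand VEGFC and its receptor missed the threshold. Vegfc, whose row counts reads that match the rat gene and need not count those of the vector, was at 2.31, 2.36 and 2.56 CPM in sham and 2.65, 3.29 and 3.85 CPM in AAV-VEGFC (0.44 ± 0.22, adjusted p = 0.174). The AAV-GFP libraries overlapped with these (3.65, 2.83 and 3.52 CPM). Flt4, the VEGFC receptor, was at 2.89, 2.81 and 2.8 CPM in sham and 2.5, 5.09 and 4.42 CPM in AAV-VEGFC (0.50 ± 0.30, adjusted p = 0.256), and these ranges overlapped. Its value was 0.75 without AAV-VEGFC 1 and 0.29 without AAV-VEGFC 2, with no call in either case. Lyve1, a hyaluronan receptor of lymphatic endothelium and border macrophages (0.52 ± 0.23, adjusted p = 0.13), and Prox1, the lymphatic master regulator that hippocampal neurons also express (-0.75 ± 0.38, adjusted p = 0.187), missed the threshold. Without AAV-VEGFC 1 the value of Prox1 was -1.22 and it was called lower (edgeR's adjusted p = 0.0349), as it was by limma voom with all libraries (adjusted p = 0.00948). Vegfa, the main growth factor of blood vessels, fell from 126, 124 and 119 CPM in sham to 89.03, 71.7 and 64.2 CPM in AAV-VEGFC (-0.71 ± 0.13, adjusted p = 0.0042), while its receptor Flt1 rose from 91.04, 102 and 104 to 153, 156 and 141 CPM (0.60 ± 0.10, adjusted p = 0.00211). Both overlapped with sham in BDL alone, where Vegfa was at 107 to 123 CPM and Flt1 at 96.3 to 123 CPM. Of all 21 tested lymphatic and VEGF genes 5 were called higher and 1 lower, with 2 higher without sham 1 or sham 2 and 3 higher without sham 3 or AAV-VEGFC 2, and 3 lower without AAV-VEGFC 1 or AAV-VEGFC 2.

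Interferon-stimulated genes were called higher in 4 of 29 tested (13.8%, against 7.98% of all genes), with a median of 0.004 on the log2 scale. Ifit3, an antiviral protein induced by interferon, was at 1.19, 1.14 and 1.53 CPM in sham and 4.54, 6.7 and 4.92 CPM in AAV-VEGFC (2.07 ± 0.34, adjusted p = 0.00262). BDL without a vector was at the sham level (0.672 to 1.85 CPM) and AAV-GFP at the AAV-VEGFC level (4.96 to 8.09 CPM). Its relative Ifit2 showed the same order, at 7.6, 7.71 and 7.84 CPM in sham and 12.8, 13.3 and 16.2 CPM in AAV-VEGFC (0.87 ± 0.11, adjusted p = 0.000642). Rsad2, the antiviral enzyme viperin, differed in that BDL was high too: the sham libraries were at 2.85, 2.65 and 3.18 CPM, the BDL libraries at 5.35, 7.8 and 4.68 CPM and the AAV-VEGFC libraries at 6.58, 7.94 and 8.26 CPM (1.39 ± 0.19, adjusted p = 0.00093). The promoters of Ifit3 and Rsad2 are shown because both genes rose and both hold the interferon-stimulated response element, searched as GAAA, any 2 bases and GAAA on both strands. They are RefSeq's 300 bases around the start in GRCr8 (chr1:241527076-241527375, plus strand, and chr6:48788071-48788370, minus strand), with the element, on the opposite strand in both, in capitals.
Ifit3: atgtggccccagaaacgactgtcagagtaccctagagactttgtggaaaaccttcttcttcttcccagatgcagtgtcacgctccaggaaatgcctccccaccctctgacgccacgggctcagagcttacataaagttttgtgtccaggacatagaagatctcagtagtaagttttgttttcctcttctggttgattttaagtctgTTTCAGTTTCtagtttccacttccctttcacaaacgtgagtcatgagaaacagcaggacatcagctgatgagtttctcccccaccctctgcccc
Rsad2: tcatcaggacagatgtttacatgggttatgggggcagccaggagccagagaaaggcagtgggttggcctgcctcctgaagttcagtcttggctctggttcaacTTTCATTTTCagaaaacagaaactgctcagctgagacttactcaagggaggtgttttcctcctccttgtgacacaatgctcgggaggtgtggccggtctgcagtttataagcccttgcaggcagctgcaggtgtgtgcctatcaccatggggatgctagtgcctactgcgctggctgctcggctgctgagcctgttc
Of the 4 genes called higher 3 had a promoter entry and all 3 held the element (Ifit3, Rsad2 and Ifitm3), against 3.77% of all promoters and 2.81% of those of tested genes. The listed genes not called were not counted apart, so these shares do not bear on which members were called. Of the inflammatory genes, Nfkbia, the inhibitor that NF-kB induces, rose from 16.4, 16.8 and 22.1 CPM in sham to 31.1, 46.7 and 33.6 CPM in AAV-VEGFC (1.01 ± 0.19, adjusted p = 0.0048). Ptgs2, the inducible cyclooxygenase that forebrain neurons also express, fell from 32.01, 27.6 and 34.2 to 14.2, 18.8 and 9.03 CPM (-1.16 ± 0.23, adjusted p = 0.00652).

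Targets of the glucocorticoid receptor were higher in 8 of 17 tested, with a median of 0.72 on the log2 scale, a number that fell to 3 without sham 1 and to 4 without sham 2. Mt1a, a metallothionein that binds zinc and copper, was at 2.83, 3.55 and 2.61 CPM in sham and 11.3, 7.46 and 8.11 CPM in AAV-VEGFC (1.58 ± 0.21, adjusted p = 0.000753), with BDL between at 4.25 to 6.03 CPM. Sgk1, a kinase induced by steroids and stress, was at 67.2, 70.9 and 94.3 CPM in sham and 141, 263 and 236 CPM in AAV-VEGFC (1.46 ± 0.32, adjusted p = 0.011; adjusted p = 0.0576 without sham 1). Ddit4, an inhibitor of mTOR, rose from 43.3, 45.5 and 52.1 to 82.7, 84.8 and 65.04 CPM (0.72 ± 0.15, adjusted p = 0.00732). The BDL libraries of Sgk1 (59.8 to 142 CPM) and Ddit4 (41.05 to 62.9 CPM) overlapped with sham. Not all listed targets rose. Reads of Fkbp5 overlapped, at 3676, 3574 and 3361 in sham and 3837, 3338 and 3690 in AAV-VEGFC. Those of Per1 did too, at 4210, 4085 and 3682 in sham and 2380, 3579 and 3981 in AAV-VEGFC. In the list 0 members were called lower.

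Of 16 clock genes tested 3 were called higher and 2 lower, 31.2% in all, with a median of -0.13 on the log2 scale. Over all tested genes 18.6% were called, 7.98% higher and 10.6% lower. The number lower was 1 without sham 1 or sham 3 and 4 without AAV-VEGFC 2. Ciart, a repressor within the circadian loop, was at 8.21, 8.62 and 7.94 CPM in sham, 11.4, 12.03 and 12.7 CPM with BDL alone, 13.6, 10.95 and 12.7 CPM in AAV-GFP and 18.7, 15.01 and 25.6 CPM in AAV-VEGFC (1.26 ± 0.17, adjusted p = 0.000734). All ligated libraries lay above sham and all AAV-VEGFC libraries above the other ligated ones. Dbp, an output factor of the clock, rose from 90.7, 121 and 96.8 to 229, 186 and 209.5 CPM (1.02 ± 0.15, adjusted p = 0.00113), while Clock, a core activator, fell from 160.2, 141 and 149.8 to 68.4, 103 and 105 CPM (-0.71 ± 0.13, adjusted p = 0.0051). The hour of death is not given in the sources used here. CLOCK and its partner bind the E-box CACGTG, and the promoter of Ciart is shown because it holds 3 copies, in capitals (chr2:186112197-186112496, minus strand, GRCr8).
Ciart: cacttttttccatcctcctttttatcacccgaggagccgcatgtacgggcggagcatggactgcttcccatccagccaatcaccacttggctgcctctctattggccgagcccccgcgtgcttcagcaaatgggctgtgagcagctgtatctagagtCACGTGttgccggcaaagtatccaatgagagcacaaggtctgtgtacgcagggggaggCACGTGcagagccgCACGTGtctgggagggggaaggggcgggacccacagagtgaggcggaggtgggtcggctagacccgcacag
Of the 3 clock genes called higher 2 held an E-box (Ciart and Tef), against 6.65% of all promoters and 8.98% of those of tested genes. Clock genes not called higher were not counted apart, so these shares do not bear on the calls.

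Of the 38 gene lists, that of splicing factors had the most members called lower. Of 30 tested 23 were called lower and 1 higher, with a median of -0.58 on the log2 scale; over the same sham libraries the median was -0.001 in BDL and -0.54 in AAV-GFP. Leaving out libraries made little difference, with 19 to 23 lower when any 1 was omitted. Snrnp70, a protein of the U1 particle that marks the start of introns, was at 126, 113 and 112 CPM in sham and 42.9, 41.2 and 31.0 CPM in AAV-VEGFC (-1.61 ± 0.12, adjusted p = 2.67e-05). BDL was at the sham level (127, 125 and 117 CPM) and AAV-GFP at the AAV-VEGFC level (35.5, 40.4 and 44.4 CPM), and the difference of AAV-VEGFC from BDL was -1.68 ± 0.12, adjusted p = 2.7e-05. Leng8 was at 204, 184 and 182 CPM in sham and 62.2, 46.03 and 38.8 CPM in AAV-VEGFC (-1.96 ± 0.16, adjusted p = 4.11e-05). Luc7l3, another U1-associated factor (-1.54 ± 0.12, adjusted p = 3.37e-05), Pnisr, a serine-arginine rich protein (-1.56 ± 0.12, adjusted p = 3.37e-05), Ddx17, an RNA helicase (-0.96 ± 0.09, adjusted p = 8.19e-05), Prpf38b (-0.78 ± 0.07, adjusted p = 8.74e-05) and Srek1, a splicing regulator outside the list (-1.30 ± 0.08, adjusted p = 1.52e-05), fell too. With BDL alone Srek1 was also below sham, at 40.9 to 42.7 CPM against 45.03 to 49.6 CPM. Srsf5, the gene called higher, was named after its values were seen (0.23 ± 0.06, adjusted p = 0.026). It lost its call without any 1 of the sham libraries or AAV-VEGFC 3. Many of these factors keep introns in part of their messages and hold them in the nucleus. Rn18s also parted the vector libraries from the rest. It was at 1671, 1641 and 1357 CPM in sham, 1786 to 2989 CPM in BDL, 4245 to 11510 CPM in AAV-GFP and 7616, 11601 and 11883 CPM in AAV-VEGFC (2.74 ± 0.35, adjusted p = 0.000622). Within the vector libraries it ranged from 4245 to 11883 CPM, while the summed splicing factors were at 3494 to 3797 CPM. The part of Rn18s in the result was not tested.

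Other transcripts had the same order, with both vector groups below sham and BDL. Snhg11, a long noncoding RNA of neurons that hosts a small nucleolar RNA, was at 209.9, 172 and 189.9 CPM in the sham libraries, at 199, 215 and 168 CPM with BDL alone and at 38.7, 29.6 and 28.8 CPM with AAV-VEGFC (-2.56 ± 0.17, adjusted p = 1.53e-05). Robo3, an axon guidance receptor, was at 27.4, 21.4 and 25.7 CPM in the sham libraries, at 16.5, 21.7 and 11.9 CPM with BDL alone and at 2.45, 2.27 and 2.68 CPM with AAV-VEGFC (-3.33 ± 0.34, adjusted p = 0.000164). Some collagen chains were among them. Col11a1, a chain of a minor fibrillar collagen, was at 19.3, 19.1 and 17.6 CPM in sham and 15.2 to 17.58 CPM in BDL. The BDL libraries thus lay just below every sham library, and AAV-VEGFC was at 4.59, 4.35 and 3.85 CPM (-2.13 ± 0.14, adjusted p = 1.53e-05). Col5a1 (-2.40 ± 0.22, adjusted p = 7.08e-05) and Col5a2 (-1.33 ± 0.16, adjusted p = 0.000361) fell likewise, and so did Fbn1, the fibrillin of elastic fibres (-1.27 ± 0.13, adjusted p = 0.000174). The chains of the main fibrillar collagens were not called: Col1a1 had 205, 356 and 249 reads in sham and 187, 681 and 251 in AAV-VEGFC, Col1a2 had 47, 66 and 20 against 46, 98 and 32, and Col3a1 had 232, 318 and 253 against 123, 451 and 224. F8, the gene of coagulation factor VIII, had the smallest adjusted p printed here (-1.60 ± 0.08, adjusted p = 4.92e-06). It was at 29.8, 28.3 and 27.3 CPM in sham and 26.4, 28.2 and 28.1 CPM with BDL alone. With a vector it was at 11.5, 10.4 and 10.4 CPM in AAV-GFP and 9.91, 9.04 and 9.34 CPM in AAV-VEGFC. Zfp192, a zinc finger gene (-1.59 ± 0.10, adjusted p = 1.52e-05), and Krit1, the cavernous malformation gene that steadies endothelial junctions (-0.69 ± 0.06, adjusted p = 6.05e-05), also had all AAV-VEGFC libraries below all 9 others. Of 29 tested microRNA rows 12 were called lower, with a median of -1.30 on the log2 scale. Tmem252, a membrane protein gene, took the opposite course, from 0.664, 0.693 and 0.454 CPM in sham to 7.39, 12.1 and 15.2 CPM in AAV-VEGFC (4.25 ± 0.37, adjusted p = 6.05e-05), with BDL at 1.06 to 2.53 CPM and AAV-GFP at 7.26 to 8.8 CPM.

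**Figure D5:**
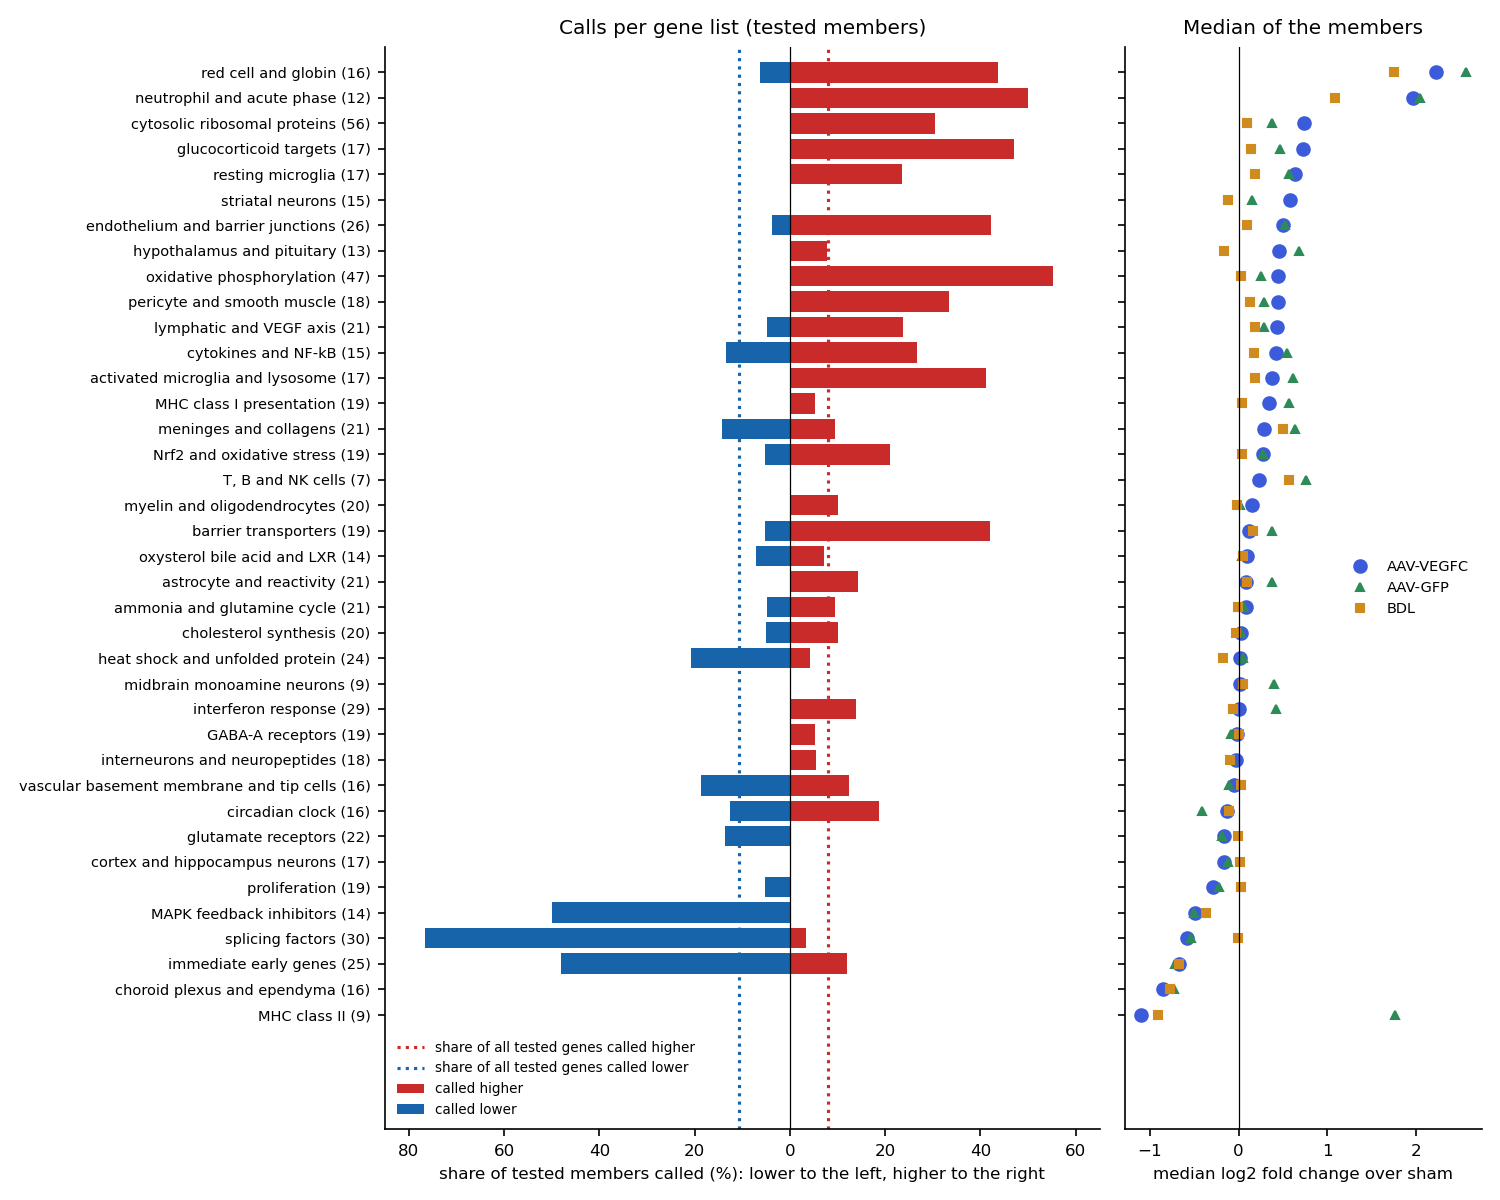
Left, share of the tested members of each of 38 gene lists called higher (right of 0) or lower (left of 0) in AAV-VEGFC against sham, with dotted lines at the shares of all tested genes (7.98% higher, 10.6% lower) and the number of tested members in brackets. Right, the members' median log2 fold change over sham in the 3 ligated groups; splicing factors are at 0 in BDL and low in both vector groups, and immediate early genes are low in all 3.

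Among called genes with a mean of at least 1 CPM in 1 of the compared groups and no overlap between them, Sycp2, Alkbh6, Gnb3, Stat4, Robo3, Tnfrsf25, Mss51 and Vom2r44 fell most. Vom2r44, a vomeronasal receptor gene, was at 3.11, 2.26 and 2.8 CPM in sham and 0.404, 0.519 and 0.286 CPM in AAV-VEGFC (-2.74 ± 0.29, adjusted p = 0.000202). Vof16, also among the 15 largest falls, was at 8.23, 7.5 and 8.7 CPM in sham, 6.99 to 9.63 CPM in BDL, 1.04 to 1.7 CPM in AAV-GFP and 1.59, 1.04 and 1.98 CPM in AAV-VEGFC (-2.41 ± 0.25, adjusted p = 0.000184). Both vector groups were low for these genes. Among the largest rises outside the red-cell and neutrophil lists, Fmo2, a flavin monooxygenase, was at 0.41, 0.53 and 0.526 CPM in sham, 1.04 to 2.91 CPM in BDL and 8.2, 1.96 and 4.2 CPM in AAV-VEGFC (3.28 ± 0.58, adjusted p = 0.00392; 2.65 without AAV-VEGFC 1). Lgals5, a rat galectin, had 0, 10 and 4 reads in sham and 73, 98 and 52 reads in AAV-VEGFC (4.02 ± 0.69, adjusted p = 0.00336; 3.41 without sham 1 and 5.14 without sham 2). RT1-CE16, a class I gene of the rat major histocompatibility complex with near-identical copies, ranged from 0 to 8.8 CPM within AAV-GFP and was at 5.37, 5.07 and 5.78 CPM in AAV-VEGFC against 0.156, 0.183 and 0 CPM in sham (5.49 ± 1.61, adjusted p = 0.0379), a call lost without any 1 of the sham libraries. Cetn3, a centrin of the centrosome, was equally uneven, at 0 to 14.6 CPM within AAV-GFP and 7.84, 9.44 and 6.59 CPM in AAV-VEGFC against 0.352, 0.245 and 0.215 CPM in sham (4.85 ± 1.51, adjusted p = 0.0467), and its call was lost without any 1 of the 6 compared libraries.

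Groups with many calls but no stable number were the ribosomal and respiratory chain genes. Of 56 cytosolic ribosomal protein genes 17 were called higher with a median of 0.74 on the log2 scale, but 1 without sham 1, 2 without sham 2 or sham 3, and 29 to 54 without 1 of the AAV-VEGFC libraries. Their summed level was 8521 to 9110 CPM in sham and 10130 to 23090 CPM in AAV-VEGFC, the highest being AAV-VEGFC 1. Ribosomal protein genes have many near-identical copies, so the split of reads between rows is uncertain. Rplp2, a stalk protein of the ribosome, was at 4.26, 4.5 and 4.28 CPM in sham and 11.4, 6.68 and 8.28 CPM in AAV-VEGFC (1.01 ± 0.19, adjusted p = 0.0051). Of 47 tested genes of oxidative phosphorylation 26 were called higher with a median of 0.45 on the log2 scale, but 2, 4 and 3 without sham 1, sham 2 and sham 3. Uqcrc1, a core subunit of complex III, was at 202, 202 and 203 CPM in sham and 309, 249 and 256 CPM in AAV-VEGFC (0.42 ± 0.08, adjusted p = 0.0057).

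In the astrocyte and the ammonia-handling list 14.3% of tested members were called, against 18.6% of all tested genes. The calls were 3 higher and 0 lower of 21 astrocyte genes, and 2 higher and 1 lower of 21 genes of the ammonia and glutamine cycle. Of the former 1 was higher without sham 1, 5 without AAV-VEGFC 2 or AAV-VEGFC 3, and 2 were higher and 3 lower without AAV-VEGFC 1, and of the latter 1 without sham 1 or sham 3 and 4 to 5 without 1 of the AAV-VEGFC libraries. Glul, the glutamine synthetase that binds ammonia in astrocytes, was at 1962, 2018 and 1952 CPM in sham and 2668, 2186 and 2123 CPM in AAV-VEGFC (0.23 ± 0.08, adjusted p = 0.0669); all AAV-VEGFC libraries were above sham, but the difference missed the threshold. Its value was 0.12 without AAV-VEGFC 1, and it was called higher without AAV-VEGFC 2, without AAV-VEGFC 3, by DESeq2 and by limma voom (lowest adjusted p = 0.0284). Gfap, the filament of reactive astrocytes, was at 639, 685 and 746 CPM in sham and 898, 503 and 486 CPM in AAV-VEGFC (-0.13 ± 0.21, adjusted p = 0.693), with AAV-VEGFC 1 above and AAV-VEGFC 2 and 3 below the sham range. Gfap was called lower in 3 of 15 alternatives, among them without AAV-VEGFC 1 (-0.48, edgeR's adjusted p = 0.0196). Aqp4, the water channel of astrocyte endfeet, missed the threshold as well (-0.34 ± 0.15, adjusted p = 0.14) and was called lower in 1 of 15 alternatives. Osmr, the oncostatin M receptor that reactive astrocytes carry, rose from 1.17, 0.795 and 0.932 to 1.97, 2.04 and 3.52 CPM (1.37 ± 0.29, adjusted p = 0.0097). Among the AAV-VEGFC libraries the microglial genes named here were highest in library 1. Aif1, the microglial marker IBA1, was at 9.56, 12.03 and 12.5 CPM in sham and 41.1, 13.9 and 14.4 CPM in AAV-VEGFC (1.03 ± 0.36, adjusted p = 0.0691). It missed the threshold; its value was 0.32 without AAV-VEGFC 1, and it was called higher without AAV-VEGFC 2, without AAV-VEGFC 3 and by DESeq2. Tmem119, a marker of resident microglia, was called (0.97 ± 0.26, adjusted p = 0.0259) and C1qc, a complement chain, too (0.94 ± 0.26, adjusted p = 0.0315; 0.56 without AAV-VEGFC 1), but both calls were lost without any 1 of the sham libraries or AAV-VEGFC 1. Of 17 tested resting-microglia genes 4 were called higher, but 0 were without any 1 of the sham libraries, 1 without AAV-VEGFC 1, 9 without AAV-VEGFC 2 and 8 without AAV-VEGFC 3. Lyz2, the lysozyme of macrophages and microglia, kept its call in every setting, at 26.4, 27.5 and 26.3 CPM in sham and 63.7, 44.6 and 47.5 CPM in AAV-VEGFC (0.96 ± 0.12, adjusted p = 0.000642). It was higher still in AAV-GFP (70.97, 71.9 and 67.3 CPM). In the oligodendrocyte list Olig1, a lineage factor, rose from 145, 158 and 152 to 236, 189 and 217 CPM (0.50 ± 0.10, adjusted p = 0.00602), and among glutamate receptors Gria2, the AMPA subunit that blocks calcium entry, fell from 1270.4, 1128 and 1253 to 719, 922 and 823 CPM (-0.57 ± 0.11, adjusted p = 0.00671). Markers of cortical and striatal neurons gave no call in edgeR's fit of all libraries (17 and 15 tested). Without any 1 of the AAV-VEGFC libraries 1 cortical gene was called lower, and without AAV-VEGFC 1 or AAV-VEGFC 2 there was 1 striatal gene higher. The summed level of the striatal markers was 639 to 1333 CPM in sham and 919 to 2088 CPM in AAV-VEGFC. At an unadjusted p under 0.05 there was 1 gene in each list, and limma voom called 1 in each while DESeq2 called 0.

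A test between AAV-VEGFC and AAV-GFP called 1 of 12850 genes (0.00778%), and at an unadjusted p under 0.05 there were 561. Among the 101 named genes followed under other settings, the smallest adjusted p besides that of the called gene was 0.857. The called gene was Slc39a12, a zinc transporter of astrocytes and endothelium. It was at 1.66, 1.3 and 1.82 CPM in sham, 1.95, 1.76 and 1.61 CPM with BDL alone, 16.7, 15.2 and 15.6 CPM in AAV-GFP and 2.65, 0.998 and 0.615 CPM in AAV-VEGFC. AAV-VEGFC thus lay around the sham range (-0.18 ± 0.40, adjusted p = 0.785), although without AAV-VEGFC 1 it was called lower than sham (-0.97, edgeR's adjusted p = 0.0109). It was below AAV-GFP (-3.49 ± 0.41, adjusted p = 0.0385). MHC class II genes were uneven between libraries: Cd74, their invariant chain, was at 18.96, 36.1 and 28.5 CPM in sham, 4.64, 7.65 and 30.7 CPM with BDL alone, 235, 25.7 and 22.4 CPM in AAV-GFP and 14.4, 10.4 and 14.2 CPM in AAV-VEGFC. All AAV-VEGFC libraries lay below sham for Cd74 and for RT1-Da, a class II alpha chain (6.14, 10.7 and 9.08 CPM against 3.4, 3.61 and 4.07 CPM), but neither difference passed the threshold (-1.10 ± 0.88, adjusted p = 0.406 and -1.22 ± 0.84, adjusted p = 0.327). Pomc, the precursor of melanocortins and endorphin, was higher in AAV-VEGFC than in all 9 other libraries, at 3.46, 8.44 and 3.45 CPM against 1.13, 1.53 and 1.46 CPM in sham (1.90 ± 0.39, adjusted p = 0.00755). The 20 hypothalamic and pituitary genes in the files summed to 16.7 to 21.8 CPM in sham and 24.0 to 73.7 CPM in AAV-VEGFC, with AAV-GFP 1 at 106.4 CPM, and the part of tissue outside the labelled region in the Pomc result was not tested.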

How the data were processed

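RNA was sequenced from 12 brain samples, and the 3 AAV-VEGFC and 3 sham libraries were compared. The authors deposited raw counts of reads per gene, 17337 rows in 12 libraries. Reads were checked with FastQC, trimmed with Trimmomatic 0.36, aligned to rn6 with HISAT2 and counted with featureCounts, per the submitters' processing notes. The sources used here do not give the annotation or strand setting. The 11 other files held single libraries with the same counts as the table. Counts were fitted as deposited with edgeR 4.0.16 in R 4.3.3 (TMM factors, filterByExpr, 1 quasi-likelihood fit of all 4 groups so that they share 1 estimate of spread), which tested 12850 genes with 99.994% of reads. P-values were adjusted over all of these by Benjamini-Hochberg, and SE is the log2 fold change divided by the square root of F. CPM values were scaled by TMM factors. Library totals were 40296297 to 51669067 counts. Replicates of a group differed by more than counting noise (chi-square per degree of freedom 11.6 to 226.52). Named genes were the 15 largest rises and falls with a mean of at least 1 CPM, the 6 lowest p in each of 38 lists, genes called in BDL or apart in the library ranges, and a fixed set. The members and lists were chosen with earlier results of these data known. DESeq2 1.42.0, limma 3.58.1, other filters and omissions were alternatives. A result of the red-cell list is not reported here. Gene coordinates are not given because the promoter table is of another build (GRCr8) than the files (rn6).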

Additional observations from a re-analysis of the deposited data

How the results depend on the processing

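Of the 2394 genes called, the settings gave 702 (160 higher, 542 lower) when the 6 compared libraries were fitted alone and 3722 (1837 higher) at an adjusted p under 0.1, and the DESeq2 Wald test called 1696 genes higher. Leaving out 1 library gave 983 to 3205 calls, 254 to 1643 higher and 729 to 1619 lower, with the low counts coming without sham 1, sham 2 or sham 3; the cause was not tested. With the replicate number as a block the fit called 1708 genes, 608 of them higher, and 1678 were among the 2394. The numbers did not pair the libraries: same-numbered sham and AAV-VEGFC libraries deviated from their group means with correlations of -0.128, -0.086 and -0.103. Other settings stayed within 1.5 times, from 2170 to 3368 calls. Single-gene results were followed for 101 named genes, and the other genes named, all without a fold change in the text, were not followed. Of the 88 followed genes called, 72 kept their call in every alternative, 16 lost it in 1 or more and 0 changed sign. Of the 13 followed genes not called, 10 gained a call in 1 or more and 2, Gfap and Slc39a12, changed sign. Gfap (-0.13) was at -0.48 without AAV-VEGFC 1, where it was called lower, at 0.0045 without AAV-VEGFC 2 and at 0.023 without AAV-VEGFC 3. Slc39a12 (-0.18) was at -0.97, 0.023 and 0.18 without the same libraries. The block ended the calls of Acta2, Tjp1 and Lcn2. With 3 libraries a group, scarce transcripts such as S100a8 and Mmp8 rest on few reads.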
